A study of Mus musculus with 6 samples.

Results

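The hepatocyte transcription factors described here were 9 genes, Hnf4a, Foxa1, Foxa2, Foxa3, Cebpa, Cebpb, Onecut1, Prox1 and Gata4, out of 35977 genes in a table of raw read counts from mouse liver. They were taken by gene name, and all 9 had a row and passed the filter on low counts. The 3 Cre-miR122 libraries (replicates 1, 2 and 4) came from livers of mice injected with AAV-Tnnt2-Cre-miR122, and the 3 Cre libraries (replicates 10, 11 and 12) from livers of mice injected with AAV-Tnnt2-Cre. Both vectors are adeno-associated viruses of serotype 9 in which the Tnnt2 promoter, that of cardiac troponin T and chosen for heart muscle, drives Cre recombinase, and the first has miR-122 target sites added, miR-122 being the dominant microRNA of hepatocytes. No uninjected liver entered the comparison, so what both vectors share cannot be seen in it. Strain, age, sex, dose and time after injection are not given in the labels, nor is it said whether each library came from its own animal, so p-values measure the spread between these libraries, which may be partly technical.

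Hepatocyte identity is held by a small set of transcription factors that bind each other's regulatory regions as well as those of the genes for serum proteins and metabolism. The FOXA proteins are pioneer factors that open chromatin, HNF4A is a nuclear receptor found at most liver enhancers, ONECUT1 (also called HNF6) acts with both, and the C/EBP proteins couple the network to energy metabolism and, in the case of C/EBP beta, to stress and the acute phase. The same factors act at the gene of miR-122 itself, and a balance shifted toward C/EBP beta is known from fasting, inflammation and regeneration.

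Total counts lay between 20340994 and 20817837 per library. The vector transcript had 12, 16 and 10 counts in Cre-miR122 livers and 61, 50 and 37 in Cre livers. Albumin (Alb) stood between 93392 and 116981 CPM (counts relative to the library size, which was scaled by TMM) in all 6 libraries. Cre replicate 10 stood apart in sex-linked genes, with 5 counts of Xist where the other 5 libraries had at least 15778, and 1676 of Ddx3y on the Y chromosome where they had at most 1. By these genes Cre replicate 10 read as male and the other 5 libraries as female, so only the Cre group was mixed in sex. The members' fold changes without Cre replicate 10 are given with the comparison of the vectors.

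Promoter windows of 4 genes are shown because HNF6, the product of Onecut1, is known to bind the Foxa2 and Hnf4a promoters, and because Onecut1 and Cebpb were the members that varied most between libraries of a group. Each window runs from 250 bases before to 50 bases after a transcript start, read 5′ to 3′ on the gene's strand from RefSeq sequences of build GRCm38.p6. Capitals mark matches on either strand. The core bound by ONECUT factors was searched as ATTGAT. That of GATA factors was searched as AGATAA. The core of the cAMP response element was searched as TGACG. Searches for TGTTTAC (FOXA), TTGCNNAA (C/EBP) and CAAAGTCCA (HNF4) found nothing in these 4 windows.
Foxa2, chr2:148046920-148047219, minus strand: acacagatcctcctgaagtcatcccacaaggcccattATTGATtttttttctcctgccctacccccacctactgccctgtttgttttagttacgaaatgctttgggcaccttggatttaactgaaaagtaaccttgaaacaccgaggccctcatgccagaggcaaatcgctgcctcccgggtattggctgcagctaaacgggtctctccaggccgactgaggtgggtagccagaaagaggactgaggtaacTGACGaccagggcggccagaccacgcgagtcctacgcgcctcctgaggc
Hnf4a upstream start, chr2:163506607-163506906, plus strand: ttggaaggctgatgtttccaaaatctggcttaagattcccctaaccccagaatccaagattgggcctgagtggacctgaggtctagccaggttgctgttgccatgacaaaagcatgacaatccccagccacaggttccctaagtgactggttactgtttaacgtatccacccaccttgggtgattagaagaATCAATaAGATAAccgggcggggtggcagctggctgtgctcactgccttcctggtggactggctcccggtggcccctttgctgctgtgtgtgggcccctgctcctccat
Onecut1, chr9:74861671-74861970, plus strand: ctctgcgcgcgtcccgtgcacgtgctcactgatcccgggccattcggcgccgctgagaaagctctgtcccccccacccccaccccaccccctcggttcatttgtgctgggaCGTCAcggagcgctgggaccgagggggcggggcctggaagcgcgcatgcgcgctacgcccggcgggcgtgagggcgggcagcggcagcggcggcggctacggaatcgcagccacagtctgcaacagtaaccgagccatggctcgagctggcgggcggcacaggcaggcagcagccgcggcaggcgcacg
Cebpb, chr2:167688665-167688964, plus strand: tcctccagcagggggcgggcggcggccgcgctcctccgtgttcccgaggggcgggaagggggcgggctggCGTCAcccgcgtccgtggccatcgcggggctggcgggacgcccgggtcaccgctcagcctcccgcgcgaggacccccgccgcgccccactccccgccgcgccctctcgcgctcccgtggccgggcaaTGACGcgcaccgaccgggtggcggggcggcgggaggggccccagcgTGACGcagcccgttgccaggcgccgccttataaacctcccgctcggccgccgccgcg

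The Foxa2 window held an ATTGAT core beginning at position -213 from the start site, and the Hnf4a upstream window held its reverse complement at -59 beside an AGATAA at -52. They were the only windows with that ONECUT core among 12 windows of the members, which include further Foxa2 windows. Of 32851 promoter windows in the RefSeq table, 7.54% held the ATTGAT core and 11.2% the AGATAA core, so a match is common. The Cebpb window, with a GC content of 80.7%, held 3 TGACG cores, at -180, -53 and -7, and the promoter of Cebpb is known to respond to CREB, the cAMP-dependent activator. The Onecut1 window held 1 such core, at -139, and the Foxa2 window held 1, at position 1. Of all windows 20.8% held at least 1. Hnf4a also has a downstream start, the one used mainly in adult liver, and the count table has 1 row per gene, so the share of reads from each start is not resolved. The window of that downstream start held no ATTGAT core. It held 2 matches to GTTAAT, searched for HNF1, which 7.10% of all windows held.

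The members differed widely in level. Counts were divided by the length of the gene model in kilobases and by the scaled library size (RPKM) to compare genes, and the means below are over all 6 libraries. Hnf4a (112.9 RPKM) and Cebpa (105.4 RPKM) stood highest and overlapped, Hnf4a being above Cebpa in 3 of 6 libraries. Cebpb followed at 51.8 RPKM, with a range that did not reach that of Cebpa. Foxa2 (21.6 RPKM), Foxa3 (19.5 RPKM) and Prox1 (15.6 RPKM) formed a middle group whose neighbouring ranges overlapped. Gata4 (5.32 RPKM), Foxa1 (4.24 RPKM) and Onecut1 (2.99 RPKM) were lowest, again with overlapping neighbours, although Gata4 exceeded Foxa1 in 6 of 6 libraries. Hnf4a had a higher RPKM than 96.5% of the 14374 genes tested and Onecut1 than 44.8%. The model of Onecut1 in the count table is 1824 bases long, while its longest GENCODE transcript has 3957, so its level per length is less certain than that of the others, whose models are no shorter than their longest transcript.

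**Figure D1:**
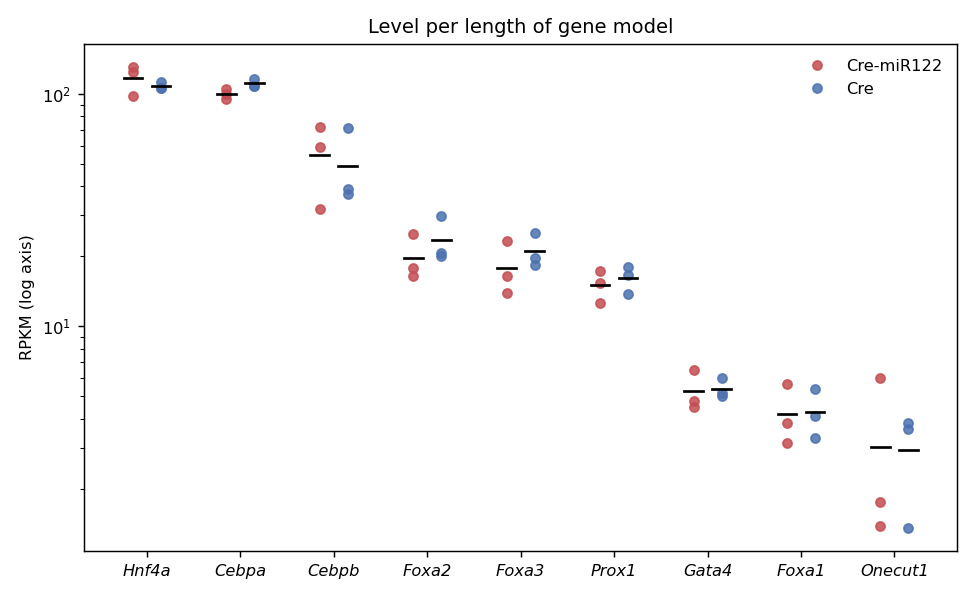
Level of each hepatocyte transcription factor per length (RPKM, log axis) in the 3 Cre-miR122 libraries (red, left of each pair) and the 3 Cre libraries (blue, right), with the mean of each group as a black line. Hnf4a and Cebpa stand near 100 RPKM, and Gata4, Foxa1 and Onecut1 stand at the low end.

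None of the 9 members passed the test of a difference between the vectors. Tested with edgeR's quasi-likelihood test over 14374 genes, 0 of 9 passed an adjusted p of 0.05 in either direction, where 0% of all genes did, and 0 of 9 had an unadjusted p under 0.05, where 5.41% of all genes did. DESeq2 and limma-voom also called 0 of the 9, while DESeq2 called 0.0209% of all genes. The vector transcript did not pass the edgeR test either, with an unadjusted p of 6.28e-05 and an adjusted p of 0.816. Its log2 fold change was -1.95 (95% interval -2.59 to -1.31), and DESeq2 called it. The log2 fold change, Cre-miR122 minus Cre, was positive for 3 members and negative for 6, with a median of -0.034. Over all genes tested it was positive for 7096 and negative for 7278 (50.6%), with a median of -0.0029. The widths of the 95% intervals differ greatly between members, and a p that misses the threshold does not show equal levels. Without Cre replicate 10, the library that stood apart in sex-linked genes, the log2 fold changes were 0.15 for Hnf4a, -0.17 for Foxa1, -0.33 for Foxa2, -0.29 for Foxa3, -0.17 for Cebpa, 0.52 for Cebpb, -0.29 for Onecut1, -0.014 for Prox1 and -0.066 for Gata4. Their median was then -0.17 and 0 members were called. In bulk liver, fewer hepatocytes and less RNA per hepatocyte cannot be told apart.

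**Figure D2:**
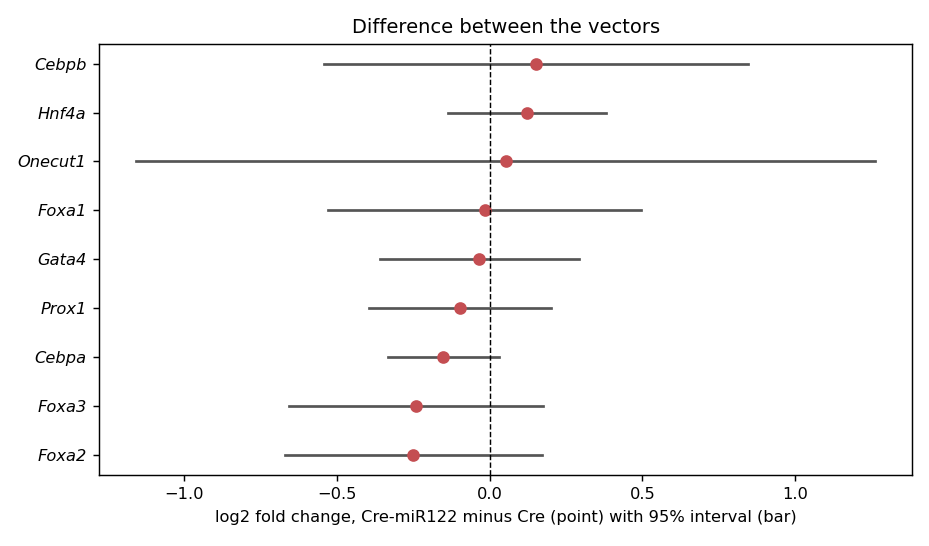
Log2 fold change of each member (point, Cre-miR122 minus Cre, horizontal axis) with its 95% interval from the edgeR fit (bar). Every interval includes 0, and that of Onecut1, from -1.16 to 1.26, is the widest.

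Hnf4a (chromosome 2, 163506809 to 163572907, plus strand), the nuclear receptor at the centre of the network, had 615, 460.0 and 587 CPM in Cre-miR122 livers and 529, 499 and 499 CPM in Cre livers. The Cre-miR122 livers enclosed the Cre livers, with replicate 2 lowest and replicates 1 and 4 highest of all 6. The log2 fold change was 0.12 (SE 0.12, 95% interval -0.14 to 0.38, adjusted p = 0.838 by edgeR). Among the Cre-miR122 libraries, dropping replicate 1 gave 0.042, dropping replicate 2 gave 0.24 and dropping replicate 4 gave 0.079. The antisense gene Hnf4aos had 8 to 18 counts in Cre-miR122 livers and 15 to 20 in Cre livers and shares no exon base with Hnf4a.

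Onecut1 (chromosome 9, 74861921 to 74889648, plus strand) encodes a homeodomain factor of hepatocytes and bile duct cells that acts upstream of Foxa2 and Hnf4a in development. It had 64, 226 and 52 counts in Cre-miR122 livers and 50, 141 and 140 counts in Cre livers. Each group held high and low libraries, and the highest (Cre-miR122 replicate 2, 10.9 CPM) exceeded the lowest (Cre replicate 10, 2.48 CPM) 4.41-fold. The exact 95% Poisson intervals of those libraries, 9.55 to 12.4 CPM and 1.84 to 3.27 CPM, did not overlap. Within the Cre-miR122 group the interval of replicate 4 was 1.88 to 3.30 CPM, also clear of that of replicate 2. The log2 fold change was 0.052 (SE 0.54, interval -1.16 to 1.26, adjusted p = 0.984 by edgeR). It was -0.91 without Cre-miR122 replicate 2 (unadjusted p = 0.0494, adjusted p = 0.970 by edgeR) and -0.29 without Cre replicate 10. Gm38678, a gene on the same strand inside the Onecut1 locus that shares no exon base with it, had 15, 41 and 6 counts in Cre-miR122 livers and 11, 27 and 18 in Cre livers, highest in the same library as Onecut1. The antisense gene Gm33562, which shares 75 exon bases, had at most 8 counts.

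The 3 Foxa genes encode forkhead factors with partly exchangeable roles. Foxa2 (chromosome 2, 148042877 to 148046969, minus strand) had 38.8, 59.4 and 42.2 CPM in Cre-miR122 livers and 49.0, 47.7 and 70.4 CPM in Cre livers. The groups overlapped through Cre-miR122 replicate 2, and the log2 fold change was -0.25 (SE 0.19, interval -0.67 to 0.17, adjusted p = 0.821 by edgeR). Without that library it was -0.46 (unadjusted p = 0.0259, adjusted p = 0.970), and without Cre replicate 12, the highest, it was -0.045.

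Foxa3 (chromosome 7, 19013283 to 19023539, minus strand), the member of the family that is least needed for liver formation, had 28.4, 33.6 and 47.4 CPM in Cre-miR122 livers and 40.1, 51.6 and 37.6 CPM in Cre livers. Here Cre replicate 11 and Cre-miR122 replicate 4 were highest, a different order from that of Foxa2. The log2 fold change was -0.24 (SE 0.19, interval -0.66 to 0.17, adjusted p = 0.821 by edgeR), and -0.48 without Cre-miR122 replicate 4 (unadjusted p = 0.0137, adjusted p = 0.999). It shrank to -0.090 when Cre-miR122 replicate 1 was dropped and to -0.092 when Cre replicate 11 was.

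Foxa1 (chromosome 12, 57540628 to 57548027, minus strand) had 10.9, 19.6 and 13.3 CPM in Cre-miR122 livers and 11.4, 14.3 and 18.7 CPM in Cre livers. The groups covered almost the same range (log2 fold change -0.017, SE 0.23, interval -0.53 to 0.50, adjusted p = 0.988 by edgeR). The antisense gene Ttc6 shares 63 exon bases with Foxa1 and had 16 to 37 counts in Cre-miR122 livers and 20 to 40 in Cre livers, while Foxa1 had 218 to 406 in Cre-miR122 livers and 231 to 373 in Cre livers. Per length, Foxa3 made up 41.6%, 34.9% and 51.8% of the Foxa family in Cre-miR122 livers and 45.1%, 51.0% and 34.5% in Cre livers. The means, 42.8 ± 8.49% and 43.5 ± 8.40% (SD, n = 3 each), differed by -0.765 percentage points (two-sided exact permutation p = 1, the smallest possible with 3 against 3 being 0.1).

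Cebpa (chromosome 7, 35119293 to 35121928, plus strand) encodes C/EBP alpha, which holds hepatocytes out of the cell cycle and drives genes of gluconeogenesis and the urea cycle. It had 250.2, 276 and 264 CPM in Cre-miR122 livers and 286, 305 and 286 CPM in Cre livers. Every Cre-miR122 library was below every Cre library, which held for no other member. Groups did not overlap in this direction for 5.45% of all genes tested, and in either direction for 11.1%, so 1 of 9 members is near that background. The log2 fold change was -0.15 (SE 0.080, interval -0.33 to 0.029, unadjusted p = 0.0901, adjusted p = 0.816 by edgeR), and it lay between -0.19 and -0.12 when each library was left out in turn.

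Cebpb (chromosome 2, 167688915 to 167690432, plus strand) encodes C/EBP beta, the family member that is induced in the acute phase, by glucagon and glucocorticoids, and during regeneration. It had 109.5, 48.7 and 90.1 CPM in Cre-miR122 livers and 108.3, 56.1 and 59.3 CPM in Cre livers. Cre-miR122 replicates 1 and 4 and Cre replicate 10 were high and the other 3 libraries low, so each vector had livers of both kinds. The log2 fold change was 0.15 (SE 0.31, interval -0.54 to 0.85, adjusted p = 0.929 by edgeR), and it lay between -0.10 (without Cre-miR122 replicate 1) and 0.52 (without Cre replicate 10) when each library was left out in turn. Dropping Cre-miR122 replicate 2 gave 0.42, dropping its replicate 4 gave 0.085, and dropping replicates 11 or 12 of Cre gave -0.017 or 0.011.

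The balance within the family followed Cebpb. Per length, Cebpa exceeded Cebpb 1.32-fold, 3.26-fold and 1.69-fold in Cre-miR122 livers and 1.52-fold, 3.13-fold and 2.78-fold in Cre livers. On the log2 scale Cebpb minus Cebpa averaged -0.95 ± 0.68 in Cre-miR122 livers and -1.24 ± 0.56 in Cre livers (SD, n = 3 each). The difference of 0.29 was smaller than either SD (two-sided exact permutation p = 0.8), and dropping Cre replicate 10 made it 0.61. It was 0.67 when Cre-miR122 replicate 2 was dropped and 0.014 when replicate 1 of that group was.

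Prox1 (chromosome 1, 190118035 to 190170680, minus strand) encodes a homeodomain factor of hepatocytes that restrains HNF4A and is also the master regulator of lymphatic endothelium. It had 129.5, 107.2 and 147 CPM in Cre-miR122 livers and 152, 117 and 141 CPM in Cre livers, with overlapping groups (log2 fold change -0.098, SE 0.13, interval -0.40 to 0.20, adjusted p = 0.888 by edgeR). Pdpn, a lymphatic marker, stood at 0.249, 0.290 and 0.194 CPM in Cre-miR122 livers and 0.693, 0.513 and 0.550 CPM in Cre livers, from 4 to 14 counts a library. Lyve1, of lymphatic and sinusoidal endothelium, stood at 17.0, 16.0 and 14.4 CPM in Cre-miR122 livers and 12.8, 12.9 and 14.2 CPM in Cre livers. The groups overlapped for neither marker, in opposite directions, and neither passed the test (adjusted p = 0.816 for both by edgeR). They were the endothelial markers with the smallest p, and groups did not overlap for 11.1% of all genes tested. Of the 10 tested endothelial markers only Lyve1 lay above 0 and 9 lay below, where 50.6% of all genes did. The endothelial marker Flt4 overlapped, at 28.1, 22.7 and 28.2 CPM in Cre-miR122 livers and 34.7, 25.4 and 22.5 CPM in Cre livers. Mmrn1 did too, at 2.19, 0.919 and 0.823 CPM in Cre-miR122 livers and 2.43, 1.26 and 1.75 CPM in Cre livers. Ccl21a had no read in any library. The antisense gene LOC102632463 shares 134 exon bases with Prox1 and had 87 to 112 counts in Cre-miR122 livers and 109 to 113 in Cre livers, against at least 2217 for Prox1.

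Gata4 (chromosome 14, 63198914 to 63271715, minus strand) encodes a zinc finger factor that opens liver chromatin with FOXA proteins in the embryo and is also made by sinusoidal endothelial and stellate cells. It had 16.6, 24.2 and 17.7 CPM in Cre-miR122 livers and 19.1, 18.6 and 22.3 CPM in Cre livers. Cre-miR122 livers held both the lowest and the highest value (log2 fold change -0.034, SE 0.15, interval -0.36 to 0.29, adjusted p = 0.966 by edgeR). Gata4 was the only member whose longest 3′ UTR in GENCODE holds the 7-mer ACACTCC that pairs with the miR-122 seed, as do 8.74% of 20642 genes searched. The match, in capitals, is shown because the vectors differ in such sites.
Gata4 3′ UTR, chr14:63199883-63199912, minus strand: gcccttgtccaACACTCCccttgcttgagg

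**Figure D3:**
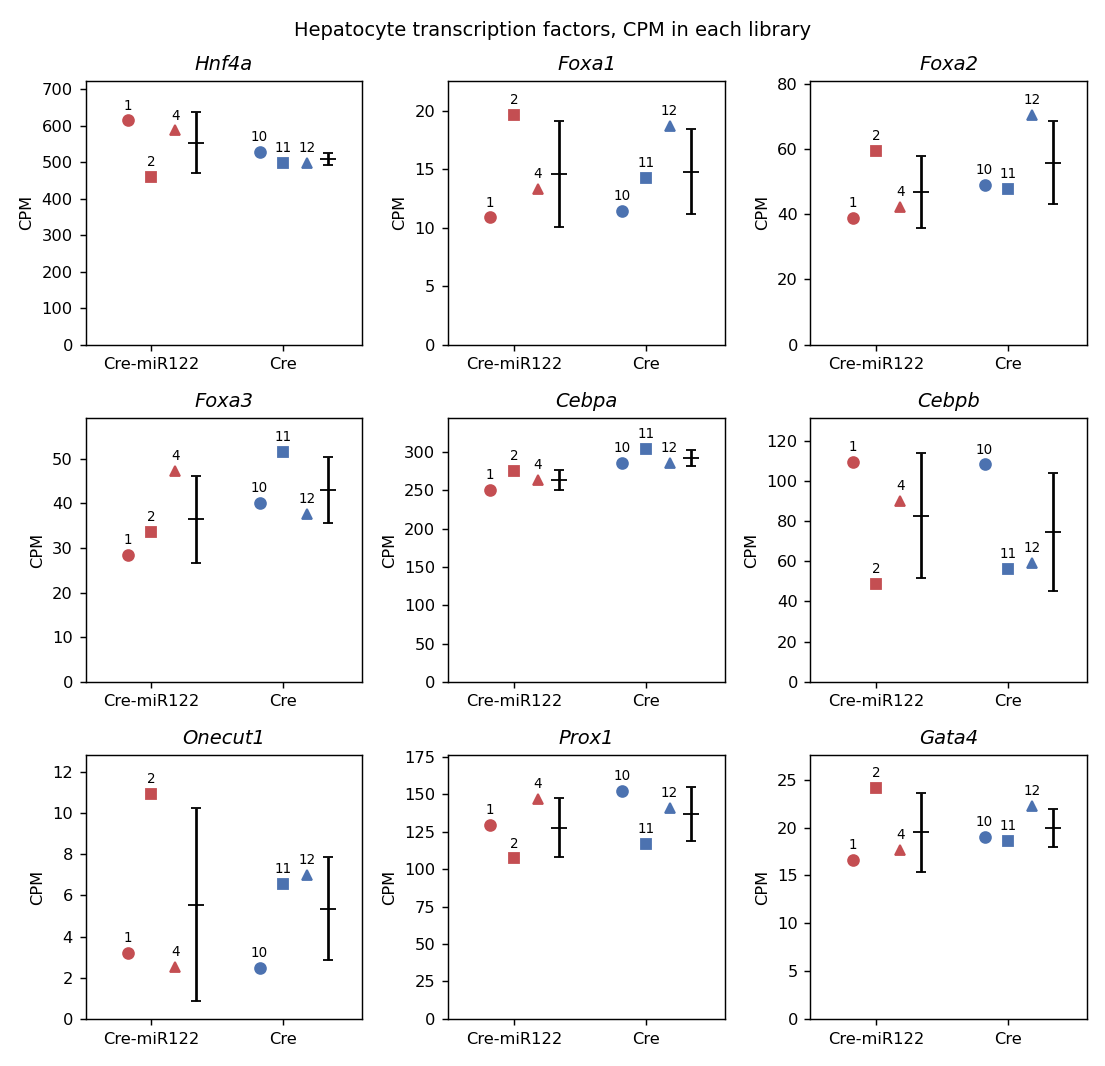
CPM of each member in every library, with Cre-miR122 (red) left of Cre (blue), replicate numbers beside the points, and mean ± SD in black (n = 3). The groups overlap in 8 of the 9 panels, and Cebpa, from 250.2 to 276 CPM in Cre-miR122 livers and from 286 to 305 CPM in Cre livers, is the exception.

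Several of these genes varied widely between livers given the same vector. The biological coefficient of variation (BCV), the spread between libraries of a group beyond counting error, was 45.0% for Onecut1, 26.6% for Cebpb, 19.4% for Foxa1, 16.7% for Foxa2 and 16.4% for Foxa3, against 11.8% over all genes. Because the spread depends on abundance, each member was set beside the 500 tested genes nearest to it in CPM, as a description with no test. The BCV of Onecut1 exceeded that of all 500 and that of Cebpb that of 498, while Foxa2 exceeded 488, Foxa1 and Foxa3 483 each, Gata4 465, Prox1 434 and Hnf4a 369. Cebpa was the steadiest, at 9.08%, and exceeded 76. Cre replicate 10, which stood apart in sex-linked genes, was the lowest library for Onecut1 and a high one for Cebpb. The part of that library in the spread was not tested. Cebpa, the member with the smallest p in the comparison of the vectors, was thus also the one with the narrowest spread.

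**Figure D4:**
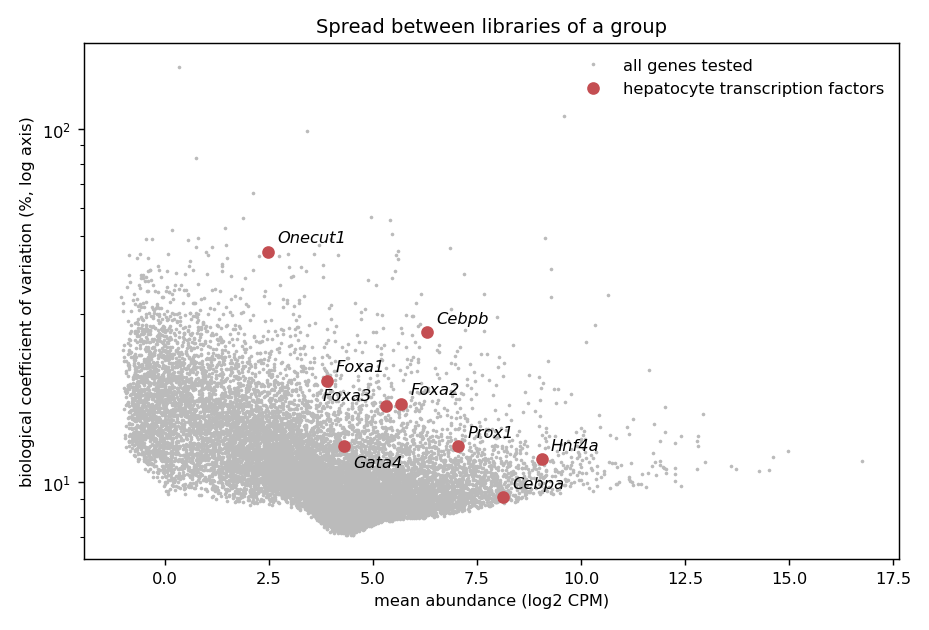
Biological coefficient of variation (percent, log axis) against mean abundance (log2 CPM) for the 14374 genes tested (grey) and the 9 members (red). Onecut1 at 45.0% and Cebpb at 26.6% lie at the upper edge of the genes of like abundance, and Cebpa at 9.08% near the lower edge.

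Some members deviated in the same libraries. Each library's log2 CPM was expressed as its deviation from the mean of the 6 libraries. Onecut1 deviated against Cebpb in 6 of 6 libraries, standing at -0.54, -0.88 and -0.91 in Cre-miR122 replicates 1 and 4 and Cre replicate 10, where Cebpb stood at 0.55, 0.27 and 0.54. Foxa1, Foxa2 and Gata4 deviated against Cebpb in 5 of 6 libraries each, the exception being Cre replicate 11, where all 3 were within 0.073 of their means. In Cre replicate 10, counted as against, Foxa2 (-0.036) and Gata4 (-0.037) were also close to their means. Hnf4a deviated with Cebpb in 6 of 6, by at most 0.22, and by 0.0011 in Cre replicate 10. Foxa3 and Prox1 had 2 libraries against Cebpb and Cebpa 4. These counts were made after the values were seen, over 6 libraries that fall into a high and a low cluster for Cebpb, so no correlation is given and the relation was not tested.

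**Figure D5:**
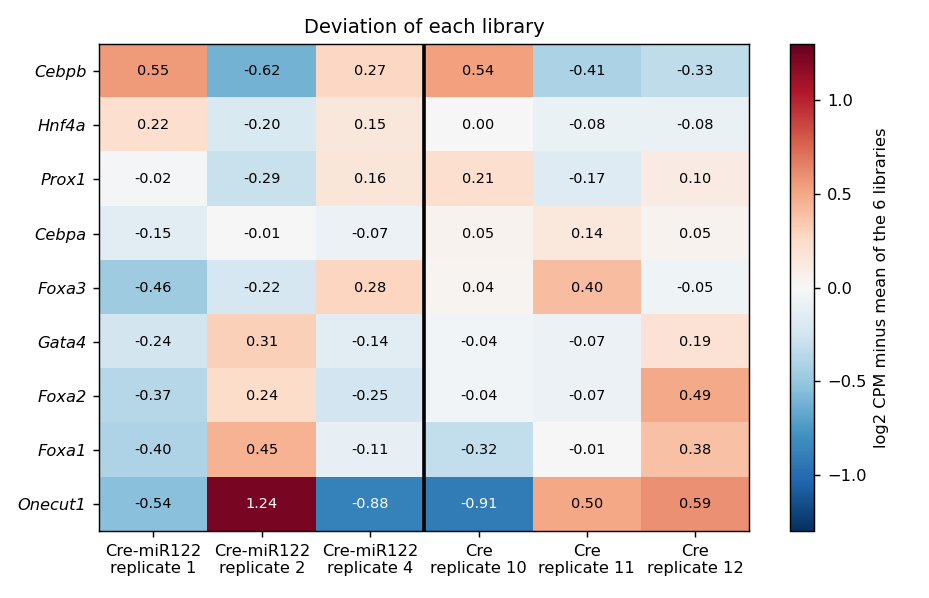
Deviation of each library (columns, Cre-miR122 left of the black line, Cre right) from the 6-library mean in log2 CPM (colour and number) for each member (rows). Cebpb in the top row and Onecut1 in the bottom row have opposite signs in 6 of 6 libraries, and neither row divides at the line between the vectors.

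Markers of other cell types were summed to see whether they divide the libraries in the same way. None of the 5 sums placed the same 3 libraries on top, although some single endothelial markers did. The 9 biliary markers, of cells that also make Onecut1 and Foxa genes, summed to 90.3, 80.2 and 76.8 CPM in Cre-miR122 livers and 73.5, 84.4 and 82.4 CPM in Cre livers, with 0 of 7 tested members called. Cftr and Sctr were below 1 CPM in all 6 libraries and not tested. The 14 macrophage and neutrophil markers, of cells that make C/EBP factors, summed to 447, 586 and 549 CPM in Cre-miR122 livers and 563, 654 and 536 CPM in Cre livers. Of these 12 were below 0 and 2 above, with a median log2 fold change of -0.23 and 0 called. Groups did not overlap for 4 of the 14, S100a8, S100a9, Csf3r and Ngp, all lower in Cre-miR122 livers. That held in this direction for 5.45% of all genes tested. The smallest p of the list was that of S100a8 (log2 fold change -0.52, SE 0.18, adjusted p = 0.816 by edgeR). The neutrophil gene S100a9 was at 4.64, 3.77 and 4.16 CPM in Cre-miR122 livers and 4.80, 6.57 and 5.75 CPM in Cre livers, and the Kupffer cell lectin gene Clec4f at 137, 156 and 141 CPM in Cre-miR122 livers and 153, 190.1 and 157 CPM in Cre livers. The 11 endothelial markers summed to 311, 273 and 277 CPM in Cre-miR122 livers and 344, 266 and 282 CPM in Cre livers, with 0 called. Here Cre replicate 10 and Cre-miR122 replicate 1, both high in Cebpb, were highest, while Cre-miR122 replicate 4 was just below Cre replicate 12. Their median log2 fold change was -0.069, and 0.094 without Cre replicate 10. Gene by gene, 2 of 10 tested endothelial markers, Oit3 and Flt4, had the same 3 libraries highest as Cebpb, against 4.93% of all genes. Among the tested biliary, stellate cell, macrophage and neutrophil, and erythroid markers 0 had. Such counts were made after the values were seen and were not tested. Stellate cell markers (median -0.11, 546 to 648 CPM in Cre-miR122 livers and 556 to 685 CPM in Cre livers) also had 0 called. Erythroid markers summed to 365 to 502 CPM in Cre-miR122 livers and 222 to 603 CPM in Cre livers, with a median of 0.10 and 0 called, a median that was -0.17 when Cre replicate 10 was dropped and 0.42 when replicate 12 was. The 12 hepatocyte markers summed to 208734 to 212434 CPM in Cre-miR122 livers and 179570 to 214959 CPM in Cre livers, with 6 above 0, 6 below and 0 called. The part of cell composition in the values of the members was not tested.

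Other transcription factors of liver did not pass the test either. Of 32 listed, 32 were tested, 17 lay above 0 on the log2 scale and 15 under it, 0 were called, and the median was 0.022. Atf5, a stress-responsive bZIP factor and the only one with an unadjusted p under 0.05, was at 291, 255 and 248 CPM in Cre-miR122 livers and 325, 383 and 269.9 CPM in Cre livers (log2 fold change -0.30, SE 0.13, adjusted p = 0.816 by edgeR). Mlxipl, the glucose-responsive factor ChREBP, was at -0.17 (SE 0.091). The smallest p on the other side belonged to Zbtb20, a repressor of Afp in adult liver (0.18, SE 0.084), and Rxra, the shared partner of the liver's nuclear receptors (0.20, SE 0.095), both with groups that did not overlap. Groups did not overlap for 3 of the 32, with Nr2f2 lower in Cre-miR122 livers as the other (-0.070, SE 0.074), against 11.1% of all genes.

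Genes known to be driven by these factors were described in the same way. Of 20 HNF4A target genes 11 lay above 0 and 9 below, with 0 called and a median of 0.019. The glucose transporter gene Slc2a2 was at 285, 272 and 293 CPM in Cre-miR122 livers and 257, 219.9 and 267 CPM in Cre livers (0.19, SE 0.094), while Apoa2, an apolipoprotein gene, was at -0.19 (SE 0.11). Of 15 FOXA target genes 12 lay above 0 and 3 below, with 0 called and a median of 0.089. Groups did not overlap for 3 of the 15, all higher in Cre-miR122 livers, against 11.1% of all genes in either direction. As many, also all higher, had an unadjusted p under 0.05 by edgeR, against 5.41% of all genes in either direction. These counts were not tested. The first by p was Afp, at 366, 182 and 235 CPM in Cre-miR122 livers and 132, 113 and 159.9 CPM in Cre livers (0.95, SE 0.23, adjusted p = 0.816 by edgeR), and the transporter gene Abcc3 was at -0.036 (SE 0.23).

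Of 19 C/EBP target genes 18 were tested, of which 13 lay above 0 and 5 below, with 0 called and a median of 0.074. G6pc, the last enzyme of gluconeogenesis and a member of all 3 target lists, was at 786, 699.5 and 502 CPM in Cre-miR122 livers and 560.4, 328 and 375 CPM in Cre livers (0.65, SE 0.21, adjusted p = 0.816 by edgeR). Lcn2, an iron-binding acute-phase protein, was at 0.48 (SE 0.24), the acute-phase gene Saa3 at -0.17 (SE 0.24) and Gys2, the liver glycogen synthase, at -0.072 (SE 0.12). Tat, the tyrosine aminotransferase gene and a target of both C/EBP and FOXA factors, was at 1419, 433 and 476 CPM in Cre-miR122 livers and 769.7, 291 and 364 CPM in Cre livers. Igfbp1, a FOXA target induced in fasting, was at 1083, 545 and 547 CPM in Cre-miR122 livers and 800.1, 247 and 483 CPM in Cre livers, and was picked after its values were seen. Lcn2, by contrast, was lowest in Cre replicate 10, at 27.6, 14.3 and 18.5 CPM in Cre-miR122 livers and 11.2, 17.9 and 14.0 CPM in Cre livers. For Tat and Igfbp1 the 3 highest libraries were Cre-miR122 replicates 1 and 4 and Cre replicate 10, the 3 in which Cebpb was high and Onecut1 low, although for Igfbp1 the values of Cre-miR122 replicates 4 and 2 were nearly equal. Of the 42 tested genes of the 3 target lists, 4 (9.52%) had these 3 libraries highest, Pck1 and Cpt1a being the others, against 709 (4.93%) of all genes tested. By list these were 2 of 18 C/EBP, 1 of 20 HNF4A and 4 of 15 FOXA target genes. For comparison, 2 of 10 tested endothelial markers had the same 3 libraries highest. These counts were made after the values were seen and were not tested.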

How the data were processed

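Messenger RNA was sequenced in 6 liver libraries, and the authors deposited raw read counts per gene with no normalization. STAR 2.7.9a and featureCounts 2.0.1 with build GRCm38 (mm10) are named in the submitters' processing notes. Neither strandedness nor the handling of multi-mapping reads is given in these sources. The table's column of gene model length, deposited with the counts, was used for RPKM. The table has 5 more columns of per-sample values, which match no labelled sample and were left out. Groups and replicate numbers came from the sample titles.

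Genes were filtered with filterByExpr, scaled by TMM and tested with edgeR 4.0.16 (glmQLFit and glmQLFTest, group alone, R 4.3.3), two-sided, with Benjamini-Hochberg adjustment over 14374 genes and a threshold of 0.05. Standard errors were derived from the F statistic. Every pair of libraries differed beyond counting error (smallest chi-square over its degrees of freedom, 5.76). The fits were tested on simulated data. Alternatives were RLE, upper-quartile and no scaling, no filter, a CPM of at least 1 in 3 libraries, robust dispersion, DESeq2 1.42.0, limma-voom (limma 3.58.1) and leaving out each library. The 9 members and 10 further lists were chosen with earlier results of these data known. Named genes were the members, overlapping genes, and those with the smallest p per list and direction, with the most abundant gene and up to 2 genes of smallest p per marker list, of which some are given as list totals only and some are not reported here. Promoters were taken from RefSeq (8 of 9 members matched) and 3′ UTRs of at least 50 bases from GENCODE M21. CPM and RPKM values are computed here, and Poisson intervals cover counting error only.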

Additional observations from a re-analysis of the deposited data

How the results depend on the processing

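No member was called under any of the 14 alternatives (edgeR, DESeq2 or limma-voom adjusted p from 0.534 to 0.9996). Over all genes, 2 were called with no filter on low counts and 3 by DESeq2, and no member was among them. The vector transcript was called in both. The members' median lay between -0.19 and 0.031 when each library was left out. Over the same fits Foxa1 lay between -0.29 and 0.18, Cebpb between -0.10 and 0.52, Onecut1 between -0.91 and 0.40, Prox1 between -0.21 and 0.014 and Gata4 between -0.22 and 0.069. Each of these 5 changed sign in at least 1 of them, and Onecut1 also with limma-voom (-0.13). The cause was not tested. Between 0 and 2 members had an unadjusted p under 0.05. Hnf4a, Foxa2, Foxa3 and Cebpa kept their direction in all 14. The group difference in Foxa3 share lay between -5.30 and 3.17 percentage points, and that of Cebpb minus Cebpa between 0.014 and 0.67 on the log2 scale. No paired analysis was possible because the groups share no replicate number. With 3 libraries a group and the spread of Onecut1 or Cebpb, their intervals leave room for differences in either direction. Such an interval is not a limit of detection. The vector transcript did not pass the main edgeR test (adjusted p = 0.816), although its interval, -2.59 to -1.31, was clear of 0. The smallest difference that could be called was not tested.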

Other observations

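Hhex, which encodes a homeodomain factor of early liver and bile ducts, was the listed factor besides the 9 members with the largest log2 fold change (0.41, SE 0.33, adjusted p = 0.823 by edgeR). It was at 52.8, 116 and 70.4 CPM in Cre-miR122 livers and 34.6, 63.6 and 82.2 CPM in Cre livers, with a BCV of 28.1%. Like Onecut1 it was highest in Cre-miR122 replicate 2 and lowest in Cre replicate 10, and it was chosen after its values were seen. Onecut2, the paralogue of Onecut1, was at 69.0, 61.6 and 53.8 CPM in Cre-miR122 livers and 54.6, 81.3 and 59.5 CPM in Cre livers, with a BCV of 13.9%, and had a different order of libraries. Cebpd, another C/EBP family member, was at 14.2, 6.53 and 8.27 CPM in Cre-miR122 livers and 10.7, 10.6 and 9.15 CPM in Cre livers, highest in Cre-miR122 replicate 1 as Cebpb was.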
